A study of Drosophila melanogaster with 6 samples.

Results

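The genes described here are 51 Drosophila genes of spermatocytes and developing sperm. They were chosen by name from known testis genes, with earlier results of these data known. Platform symbols were brought to current symbols, and a gene was kept where a probe set (the group of probes that reads 1 transcript) carried its symbol alone. This left 40 measured genes of 10843 in all: 9 regulators of the meiotic arrest class, 4 regulators of meiosis and stored mRNA, and 27 spermatid products. The other 11 were not analysed here: Mst35Ba, gdl, loopin-1, S-Lap1, S-Lap2, S-Lap3, S-Lap4, swif, cola, whip and t-cup.

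RNA extracted from larvae at the third instar was read on 6 Affymetrix arrays with a single label. The mle/mle group holds 3 arrays of homozygous maleless (mle) mutants, which the labels call male larvae and which were separated from heterozygous siblings that carried a T(2-3) chromosome marked with Tb. The wild type group holds 3 arrays of the strain written as cancon S, whose sex the labels do not give. The labels do not give the mle allele, the strain background of the mutant larvae or the number of larvae per array, so strain, sex and genotype cannot be told apart, and p-values measure only the spread between these RNA samples. Maleless is an RNA helicase and belongs to the dosage compensation complex, which raises transcription of the X chromosome in males. The stated purpose of the series is the role of mle in gene expression of the larva.

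Spermatogenesis in Drosophila starts from germ line stem cells, whose daughters divide as spermatogonia and then grow as primary spermatocytes. Spermatocytes switch on a large set of testis genes through a testis form of a conserved repressor complex, tMAC, and through testis forms of the TFIID subunits, the tTAFs. Loss of either stops the cells before meiosis, hence the name meiotic arrest genes. Many spermatid mRNAs are made in spermatocytes, stored and translated only after meiosis, and the testis of a late male larva holds growing spermatocytes.

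All values below are log2 RMA signals, in which a step of 1 is a factor of 2, and a difference is mle/mle minus wild type. Array medians over all probe sets lay between 6.89 and 6.92, and the correlation between any pair of arrays lay between 0.987 and 0.997. The arrays numbered 2 in both groups stood apart from the others of their group in the testis genes, so results are given with and without them. The number of arrays limits the precision. RNA came from whole larvae, where fewer testis cells and less RNA per cell cannot be told apart.

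The median difference of the spermatid products was 0.03 between the arrays numbered 1 and -0.03 between the arrays numbered 3. Single genes ran from -0.19 to 0.30 on the arrays 1 and from -0.21 to 0.24 on the arrays 3. Most spermatid products read low on the array numbered 2 of both groups, by more in mle/mle than in wild type for 22 of the 27. The meiotic arrest regulators showed no such drop in the RMA signal. Between the genotypes, limma called 0 of the 40 genes at an adjusted p under 0.05, against 0.0646% of all genes, and the lowest adjusted p among them was 0.9997. At an unadjusted p under 0.05 there were also 0 of 40, against 4.63% of all genes. The groups overlapped in every one of the 40 genes, where they did not overlap in 8.63% of all genes. The log2 differences ran from -0.39 (S-Lap8) to 0.15 (Mst35Bb), and 30 of 40 lay below 0, against 46.4% of all genes. That count was 14 of 40 without mle/mle array 2 (51.4% of all genes), 20 without wild type array 3 (44.5%) and 21 without both arrays numbered 2 (49.8%).

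**Figure D1:**
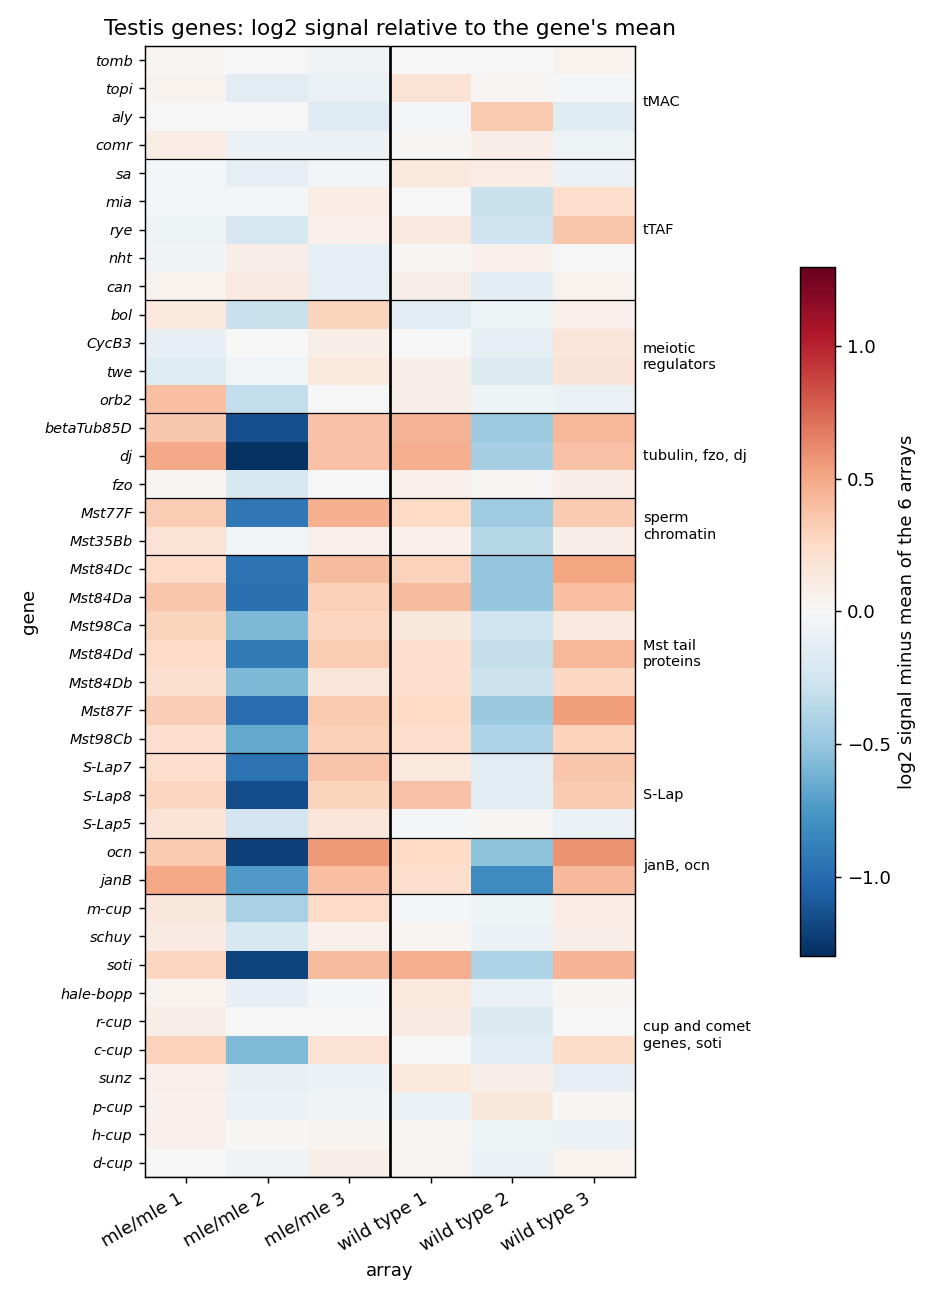
Log2 signal of each testis gene (rows, by role) on each array (columns, mle/mle left of the line and wild type right of it), minus the gene's mean over the 6 arrays; blue is below the mean and red above it. The low values of the spermatid products stand in the columns of mle/mle 2 and wild type 2, with dj at 6.83 and 7.67 on these arrays, while the tMAC and tTAF rows stay pale.

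The 9 arrest regulators had differences between -0.15 (rye) and 0.04 (mia), with a median of -0.06, beside a median of 0.01 over all genes. Only sa and tomb were bright enough to lie above the dimmest 40% of probe sets, and RMA compresses changes of dim probe sets. Median values of the 9 genes, each centred on its own mean, were -0.005, -0.02 and -0.07 on mle/mle arrays 1 to 3. On wild type arrays 1 to 3 they were 0.02, 0.01 and 0.00. No array stood apart in these medians of the RMA signal. For the tTAF genes alone the centred median was -0.14 on wild type array 2, against 0.07 and 0.04 on wild type arrays 1 and 3. For the tMAC genes it was 0.05 on wild type array 2.

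Of the tMAC genes, aly, which encodes the testis relative of the LIN-9 family, read 6.15, 6.16 and 5.99 on mle/mle arrays 1 to 3, against 6.14, 6.50 and 6.0001 on wild type arrays 1 to 3. Wild type array 2 was the high one, and the other five values lay close together. The difference was -0.11 (95% interval -0.41 to 0.18). For tomb, which encodes a CXC-domain DNA-binding protein, the values were 7.16, 7.15 and 7.10 in mle/mle and 7.14, 7.14 and 7.19 in wild type. Its values lay within 0.1 of each other on all 6 arrays (difference -0.02, 95% interval -0.17 to 0.13). The zinc finger gene topi read 6.50, 6.31 and 6.36 in mle/mle and 6.64, 6.46 and 6.43 in wild type. Its difference was -0.12 (95% interval -0.32 to 0.09), and each same-numbered pair of arrays had the lower value in mle/mle. The gene comr, whose product is a nuclear tMAC protein, read 4.59, 4.42 and 4.42 in mle/mle and 4.51, 4.58 and 4.42 in wild type. These are among the dimmest values of the list, and the groups overlapped.

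Of the tTAF genes, sa read 7.25, 7.14 and 7.22 in mle/mle and 7.40, 7.35 and 7.18 in wild type. The lowest wild type value lay inside the mle/mle range, and the difference was -0.11 (95% interval -0.30 to 0.08). In the second deposited table, made with the PLIER method, sa differed by -0.29 (adjusted p = 1.0 by limma). The gene mia read 6.01, 6.01 and 6.13 in mle/mle and 6.04, 5.74 and 6.27 in wild type. Wild type array 2 was its lowest value, and the dimmer second probe set of mia differed by 0.02. The gene nht read 5.38, 5.50 and 5.29 in mle/mle and 5.44, 5.49 and 5.42 in wild type, so the wild type range lay inside that of mle/mle. The gene rye, listed by RefSeq as Taf12L, read 5.37, 5.22 and 5.50 in mle/mle and 5.57, 5.17 and 5.80 in wild type. It was the only arrest regulator with its lowest value on array 2 of both groups. The gene can read 4.05, 4.11 and 3.88 in mle/mle and 4.08, 3.86 and 4.04 in wild type, dim on every array and overlapping.

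The 4 regulators of meiosis and stored mRNA differed by -0.04 to 0.09. The gene bol encodes Boule, an RNA-binding protein of the DAZ family that spermatocytes need to translate twe mRNA. It read 8.76, 8.33 and 8.91 in mle/mle and 8.47, 8.57 and 8.69 in wild type. Its lowest value was on mle/mle array 2, and the other two mle/mle values lay above all 3 wild type values. The difference was 0.09 over all arrays (SE 0.15) and 0.25 without both arrays numbered 2 (limma, unadjusted p = 0.030, adjusted p = 0.29). The dimmer probe set of bol differed by 0.08.

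The cyclin gene CycB3, which dividing somatic cells also use, read 7.87, 7.97 and 8.05 in mle/mle and 7.97, 7.86 and 8.14 in wild type, with the 2 ranges nearly the same. The meiotic Cdc25 phosphatase gene twe differed by -0.04 and orb2, which encodes an RNA-binding protein of spermatids and neurons, by 0.05. On mle/mle array 2 orb2 read 5.82, against 6.53 and 6.14 on the other two mle/mle arrays, while the neuronal markers elav and nSyb read 6.21 and 6.04 there, inside their range over the other arrays.

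Among the structural genes of spermatids, betaTub85D encodes the testis beta-tubulin of the meiotic spindle and the sperm tail. It read 8.85, 7.35 and 8.88 on mle/mle arrays 1 to 3, against 8.94, 8.03 and 8.93 on wild type arrays 1 to 3. Arrays 1 and 3 of both groups lay within 0.1 of each other, and both arrays numbered 2 lay below them. The difference of -0.27 had a 95% interval of -1.24 to 0.69, set by array 2. Without the arrays numbered 2 it was -0.07 (adjusted p = 0.80 by limma).

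The gene dj encodes Don juan, a protein of the sperm tail. It read 8.60, 6.83 and 8.49 in mle/mle and 8.58, 7.67 and 8.49 in wild type. The same-numbered arrays 1 differed by 0.02 and the arrays 3 by less than 0.01, while mle/mle array 2 lay 0.85 below wild type array 2. On array 2 the signal of dj was 0.304 times the geometric mean of arrays 1 and 3 in mle/mle, and 0.550 times in wild type. The mitofusin gene fzo, which drives mitochondrial fusion in spermatids, was dimmer and lay closer together, at 5.87 on mle/mle array 2 and 6.09 on wild type array 2, with the other four arrays between 6.08 and 6.15.

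**Figure D2:**
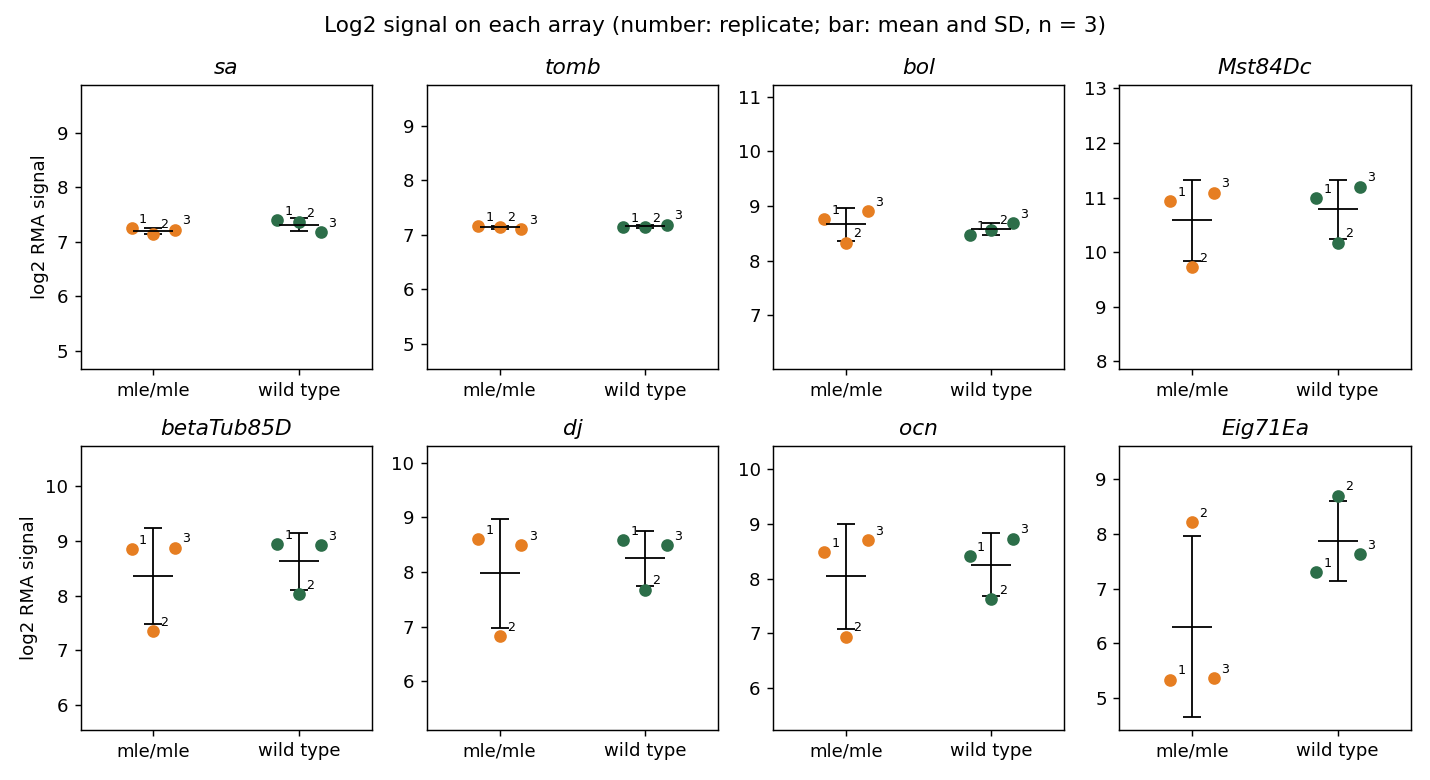
Log2 RMA signal (vertical axis, the same span in each panel) of 7 testis genes and of Eig71Ea, an ecdysone-induced gene of late larvae, in mle/mle (left, orange) and wild type (right, green); points are arrays with their replicate number, and bars give the mean and SD (n = 3). The points numbered 2 lie lowest in Mst84Dc, betaTub85D, dj and ocn and highest in Eig71Ea in both groups, and close to the others in sa and tomb.

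The sperm chromatin genes replace histones with compact sperm proteins. Mst77F, a linker-histone-like protein gene, read 7.90, 6.65 and 8.03 in mle/mle and 7.84, 7.11 and 7.91 in wild type. The arrays numbered 2 were again the low ones, and the other four lay between 7.84 and 8.03. The protamine-like gene Mst35Bb read 4.04, 3.82 and 3.92 in mle/mle and 3.91, 3.48 and 3.94 in wild type. Its difference was the highest of the list (0.15, 95% interval -0.15 to 0.45). Its signal was very dim, and the PLIER table gave -0.35. A probe set that the platform assigns to both Mst35B genes was left out.

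The 7 Mst tail genes encode small proteins rich in cysteine, glycine and proline, which form part of the sperm tail. All 7 had their lowest value on array 2 in both groups. Mst84Dc read 10.93, 9.72 and 11.09 in mle/mle and 10.98, 10.18 and 11.20 in wild type. Mst84Da read 11.04, 9.71 and 10.99 in mle/mle and 11.08, 10.17 and 11.07 in wild type. In both genes arrays 1 and 3 of the 2 groups lay close together, and the step down to array 2 was larger in mle/mle than in wild type.

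The gap of array 2, its value minus the mean of arrays 1 and 3 of the same group, ran over the 7 Mst genes from -1.32 (Mst87F) to -0.77 (Mst84Db) in mle/mle, and from -0.92 (Mst84Dc) to -0.39 (Mst98Ca) in wild type. Their differences between the genotypes ran from -0.23 (Mst84Dd) to -0.01 (Mst98Ca), with SEs of 0.23 to 0.38. The 4 Mst84D genes lie side by side on 3R with no protein-coding gene between them in the RefSeq assembly Release 6 plus ISO1 MT, as do Mst98Ca and Mst98Cb. Genes of these families resemble each other, and their probe sets may share signal, so they are not independent readings.

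The S-Lap genes encode leucyl aminopeptidases that are abundant in sperm. S-Lap8 had the lowest difference of the 40 genes (-0.39, SE 0.36, adjusted p = 0.9997 by limma) and read 9.18, 7.75 and 9.19 in mle/mle, against 9.28, 8.75 and 9.24 in wild type. Most of it came from array 2, where the same-numbered difference was -1.002, against -0.10 and -0.05 for arrays 1 and 3. S-Lap7 read 10.04, 8.85 and 10.18 in mle/mle and 9.94, 9.67 and 10.17 in wild type, with the same step on mle/mle array 2 and a smaller one on wild type array 2. S-Lap5 read 7.10, 6.68 and 7.08 in mle/mle and 6.90, 6.93 and 6.84 in wild type. Its wild type array 2 was not low, and without both arrays numbered 2 its difference was 0.22 (limma, unadjusted p = 0.018, adjusted p = 0.22).

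The genes janB and ocn are paralogs of the janus region and neighbours on 3R. The values of ocn were 8.48, 6.93 and 8.71 in mle/mle and 8.41, 7.62 and 8.73 in wild type. Those of janB were 7.57, 6.32 and 7.45 in mle/mle and 7.29, 6.25 and 7.49 in wild type. For janB, unlike ocn, the arrays numbered 2 of the 2 groups read nearly the same in the RMA signal, at a gap of -1.19 in mle/mle and -1.14 in wild type. In the PLIER table the low array of janB read 6.23 in mle/mle and 6.64 in wild type, and its difference there was -0.11. The differences were -0.21 (SE 0.46) for ocn and 0.10 (SE 0.39) for janB.

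The cup and comet genes are transcribed after meiosis, and their mRNAs gather at the ends of elongating spermatid tails. Listed with them is soti, whose product inhibits a testis ubiquitin ligase in late spermatids. It read 8.57, 7.09 and 8.70 in mle/mle and 8.76, 7.89 and 8.73 in wild type, and its difference was -0.34 (SE 0.42), and -0.11 without the arrays numbered 2. The other 9 genes had smaller gaps on array 2. The brightest was m-cup, which read 9.02, 8.45 and 9.12 in mle/mle and 8.86, 8.81 and 8.97 in wild type. Next was schuy, at 8.71, 8.40 and 8.67 in mle/mle and 8.63, 8.53 and 8.69 in wild type. In both, mle/mle array 2 was the lowest of the 6 values, and wild type array 2 lay just under the other wild type arrays. Of the rest only c-cup had a gap beyond 0.5 (-0.82 in mle/mle, -0.27 in wild type). The differences of hale-bopp, sunz, r-cup, d-cup, p-cup and h-cup lay between -0.07 and 0.08.

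**Figure D3:**
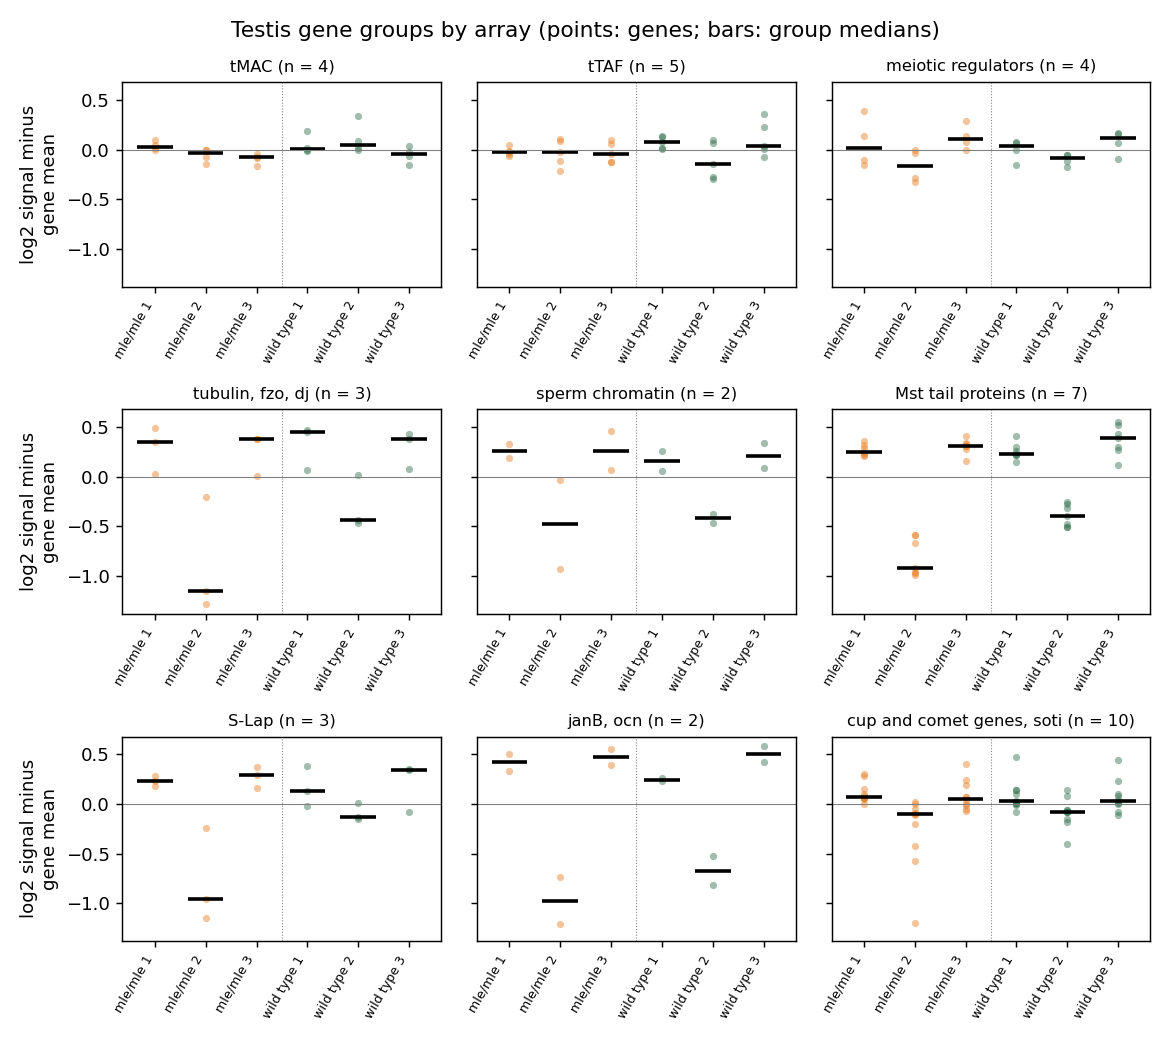
Log2 signal minus each gene's mean over the 6 arrays (vertical axis) by array (horizontal axis, mle/mle left of the dotted line), in a panel for each role; points are genes and bars are group medians. The Mst tail median is -0.92 on mle/mle array 2 and -0.40 on wild type array 2, and between 0.23 and 0.39 on the other four arrays.

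Over the 27 spermatid products, the median centred value was 0.23, -0.59 and 0.28 on mle/mle arrays 1 to 3, and 0.14, -0.26 and 0.27 on wild type arrays 1 to 3. The group averages of these medians were -0.02 ± 0.49 in mle/mle and 0.05 ± 0.27 in wild type (SD, n = 3 each), so the spread within a group exceeded the difference between them. The median difference of the 27 genes was -0.09, and its sign depended on which arrays were used. It was 0.19 without mle/mle array 2, 0.0012 without wild type array 3, -0.28 without wild type array 2 and 0.01 without both arrays numbered 2. Of the 27 differences 21 lay below 0 over all arrays, 4 without mle/mle array 2, 13 without wild type array 3 and 12 without both arrays numbered 2. By same-numbered pair, the median over the 27 genes was 0.03 for the arrays 1, -0.33 for the arrays 2 and -0.03 for the arrays 3.

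Array 2 held the lowest value of its group in both groups in 22 of the 27 spermatid products, in 1 of the 9 arrest regulators and in 0 of the 4 meiotic regulators, against 17.4% of all genes. The 5 exceptions among the spermatid products, in the RMA signal, were S-Lap5, sunz, r-cup, p-cup and h-cup. In the PLIER table r-cup was low on the array of each group where the spermatid products were low. It read 6.14 there in mle/mle and 6.28 in wild type, against 6.93 to 7.15 on the other arrays. S-Lap5 and h-cup were also lowest on these arrays, by less, and p-cup was not. A gap beyond -0.5 in both groups was seen in 13 of the 27, against 1.18% of all genes, namely dj, betaTub85D, soti, ocn, janB, Mst77F, S-Lap8 and the Mst tail genes other than Mst98Ca. These 13 are 10.2% of the 128 genes of the whole array with such a gap. The median gap of the spermatid products was -0.87 in mle/mle and -0.45 in wild type, that of the arrest regulators -0.06 and -0.03, and that of all genes 0.04 and -0.01. The arrest regulators were mixed in wild type, with a median gap of -0.20 for the tTAF genes and 0.04 for the tMAC genes. The gap was larger in mle/mle than in wild type in 22 of the 27 spermatid products. These are descriptions of 2 arrays that stood apart, without a test.

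**Figure D4:**
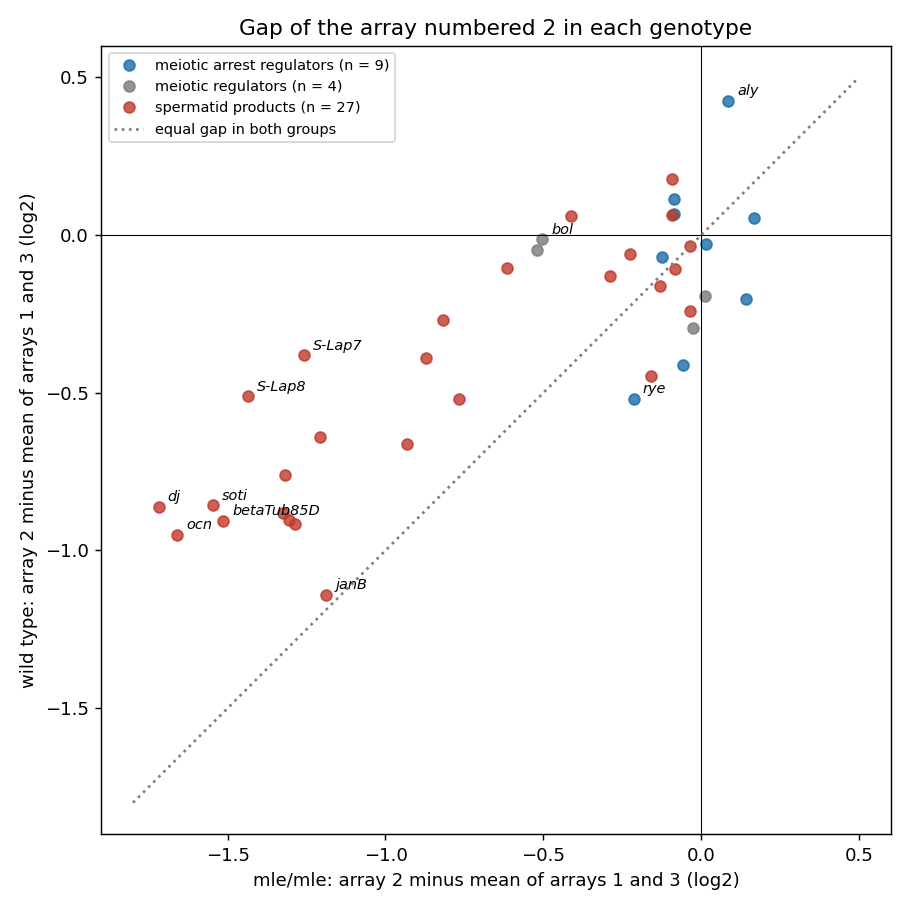
Gap of the array numbered 2 (its log2 signal minus the mean of arrays 1 and 3 of the same group) in mle/mle (horizontal axis) and wild type (vertical axis) for the 40 testis genes; points are genes, coloured by class, and the dotted line marks equal gaps. Spermatid products reach -1.72 in mle/mle and -1.14 in wild type, mostly above the dotted line, and the arrest regulators lie nearer the origin.

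In the PLIER table, too, 1 array of each group read low. Its column names give the group of each array but no replicate number, and carry an array code shared by 4 arrays, with 2 of each group, and a second code shared by the remaining pair. The median centred value of the spermatid products was 0.30, -0.95 and 0.35 on the 3 mle/mle arrays and 0.31, -0.44 and 0.34 on the 3 wild type arrays, the last of each being the array of the second code. The low array of each group thus carried the code of the 4 arrays, and whether it is the array numbered 2 cannot be read from the names. The arrest regulators, in the same order of arrays, had medians of 0.06, -0.14 and -0.10 in mle/mle and 0.15, -0.07 and 0.13 in wild type, so they were lower on these arrays by less than the spermatid products. Within the PLIER values limma called 0 of the 40 genes, against 0.0369% of all genes, and had 0 at an unadjusted p under 0.05, against 4.6%.

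Leaving out arrays changed which genes came closest to a difference. With the replicate number as a block, limma called 0 of the 40, against 0.0553% of all genes, and 0 had an unadjusted p under 0.05, against 7.61%. Without wild type array 2, 0 were called, against 0.0646% of all genes, and rye alone had an unadjusted p under 0.05 (-0.32, adjusted p = 0.70), against 6.77% of all genes. Without mle/mle array 2, 0 were called, against 1.13% of all genes, and bol and S-Lap5 (0.26 and 0.20) had an unadjusted p under 0.05, against 8.41%. Without both, 0 were called, against 3.52%, and the 3 genes bol, S-Lap5 and rye had an unadjusted p under 0.05, against 14.4%. The share of the 40 genes lay below that of all genes in each case.

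**Figure D5:**
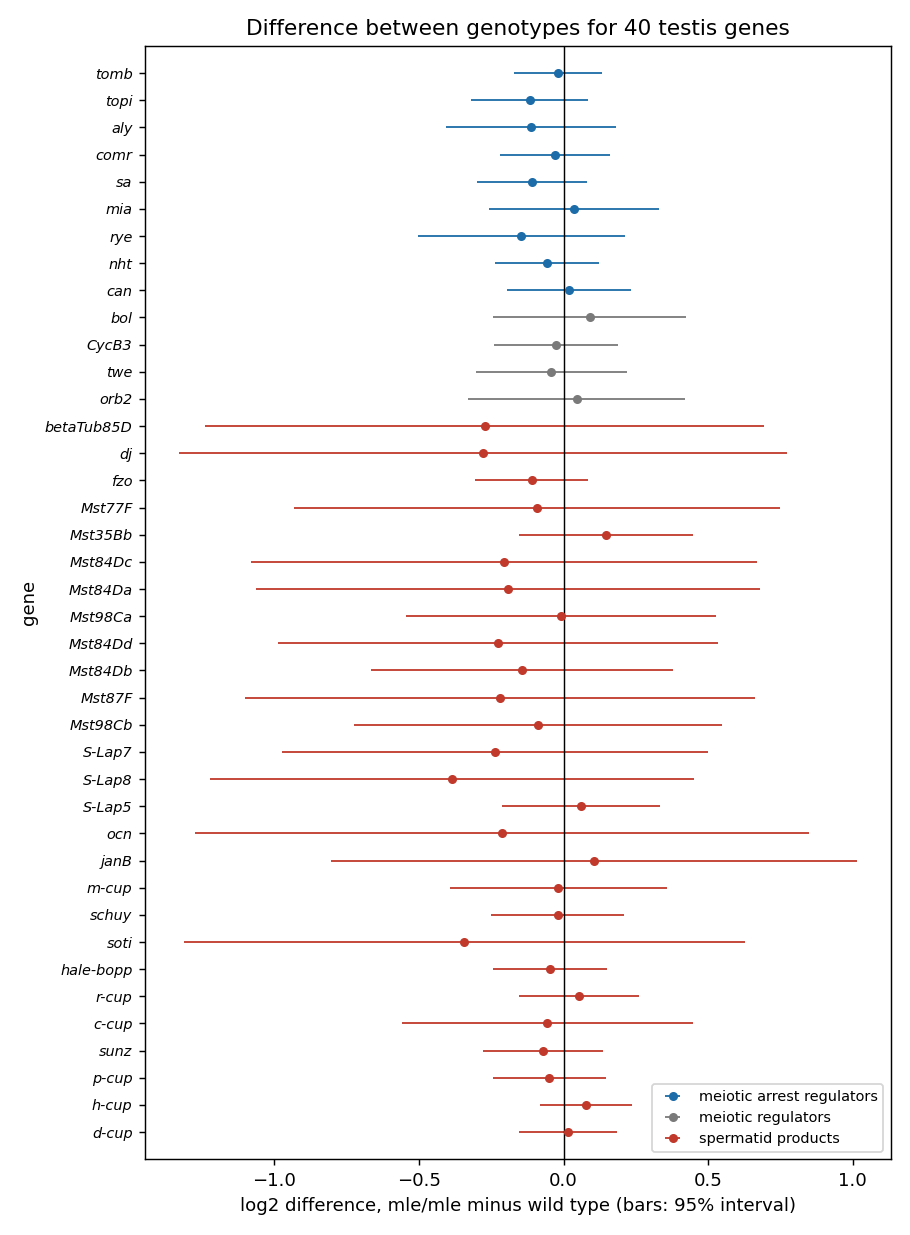
Log2 difference (horizontal axis, mle/mle minus wild type) of the 40 testis genes, ordered by role, with 95% intervals of the limma fit over all probe sets (n = 3 arrays each), coloured by class. All intervals span 0, and those of dj (-1.33 to 0.77) and ocn (-1.27 to 0.85) are wide where that of tomb (-0.17 to 0.13) is narrow.

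These intervals come from the fit without pairs. Among the arrest regulators the bound farthest from 0 was -0.50 on the log2 scale (rye), and among the spermatid products it was -1.33 (dj). The median SD within a group was 0.50 in mle/mle and 0.26 in wild type for the spermatid products, 0.10 and 0.12 for the arrest regulators, and 0.09 and 0.11 for all genes. With the replicate number as a block the SE was smaller for the genes that were low on both arrays numbered 2. It was 0.13 for betaTub85D (0.42 without the block), 0.15 for soti (0.42), 0.09 for Mst84Dc (0.38) and 0.17 for dj (0.46). The lowest p among the 40 genes in the blocked limma fit was that of soti (unadjusted p = 0.055, adjusted p = 0.72).

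In 9 of the 40 genes each same-numbered pair was lower in mle/mle, against 12.1% of all genes, and in h-cup alone each was higher, against 15.5%. The 9 were topi, betaTub85D, fzo, Mst84Da, Mst84Db, Mst84Dc, S-Lap8, hale-bopp and soti. For all of them but hale-bopp the pair of arrays 2 differed most. For topi it did so only by a little, at -0.15 against -0.14 for the arrays 1.

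Of 53 further spermatogenesis genes on a second list, 36 were measured. Limma called 0 of these, against 0.0646% of all genes, with 0 at an unadjusted p under 0.05, against 4.63%. Array 2 was the lowest of its group in both groups in 25 of the 36, against 17.4% of all genes. The testis HMG-box gene tHMG1 read 9.86, 8.09 and 9.76 in mle/mle and 10.04, 9.06 and 10.02 in wild type. The testis isoform of the cap-binding protein, eIF4E-3, read 7.54, 6.39 and 7.55 in mle/mle and 7.87, 6.90 and 8.11 in wild type. Both had their low value on array 2 of each group, as dj and betaTub85D did. Among testis variants of proteasome subunits, Prosbeta4R2 read 6.18, 5.49 and 6.15 in mle/mle and 6.20, 5.56 and 6.41 in wild type, low on array 2 of both groups, while Prosbeta2R1 lay between 6.28 and 6.39 on all 6 arrays.

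Markers of other cells were read beside these genes. The 8 genes of the germ line before the spermatocyte stage (bam, bgcn, vas, nos, aub, zpg, piwi and stwl) had array medians of -0.02 to 0.05 in mle/mle and -0.03 to 0.06 in wild type on the centred scale, with array 2 the highest in both groups. Their summed linear signal was 702 to 734 in mle/mle and 692 to 727 in wild type. The brighter genes nos, zpg and bgcn (mean log2 signals of 8.14, 7.48 and 6.88) made up most of this sum, which says little about the dimmer ones. Defining genes of this stage were dim, with bam between 4.86 and 5.02 and vas between 4.39 and 4.64, and the tables hold no detection call. The 5 measured of 6 cyst and hub cell genes had array medians of -0.06 to 0.05 in mle/mle and -0.10 to 0.09 in wild type. Their differences ran from -0.24 (eya) to 0.18 (upd1), with 3 of the 5 above 0. Only eya had an unadjusted p under 0.05 (0.040, adjusted p = 0.9997, by limma), against 4.63% of all genes. Its groups alone did not overlap, against 8.63% of all genes. The 5 female germ line genes were listed since the labels give no sex for wild type. Their array medians were -0.08 to 0.02 in mle/mle and -0.04 to 0.09 in wild type. Over all arrays osk lay between 3.93 and 4.11, bcd between 4.43 and 4.77 and grk between 4.72 and 5.21. The genes otu (7.03 to 7.56) and ovo (6.94 to 7.17) were brighter.

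Ecdysone-induced genes of late larvae moved with the low arrays in the other direction. Eig71Ea read 5.33, 8.21 and 5.36 in mle/mle and 7.30, 8.70 and 7.63 in wild type. Eig71Ed read 6.03, 7.68 and 5.91 in mle/mle and 6.93, 8.60 and 6.80 in wild type. Both were highest on array 2 of each group, where the spermatid products were lowest. Eig71Ee read 11.89, 12.31 and 11.81 in mle/mle and 12.56, 12.47 and 12.41 in wild type, so its wild type arrays did not follow. The summed linear signal of these 3 measured of 5 listed genes was 3701 to 5592 in mle/mle and 5748 to 6463 in wild type. Eig71Ee was by far the brightest and made up most of this sum, which says little about Eig71Ea and Eig71Ed. The part of the 3 genes in the low spermatid signal was not tested. The 5 salivary glue genes summed to 41684 to 49989 in mle/mle, with array 2 the highest. In wild type they summed to 51694 to 55919, with array 2 the lowest. All 5 differences lay below 0, and 3 had an unadjusted p under 0.05, against 4.63% of all genes. Their lowest adjusted p was 0.32 by limma, for Sgs8 (difference -0.49). Of the 3 measured fat body genes, Fbp2 read 12.41, 11.54 and 12.60 in mle/mle and 12.01, 11.86 and 12.23 in wild type, lowest on array 2 of both groups like the spermatid products. Fbp1 read 12.92, 13.18 and 13.05 in mle/mle and 12.77, 12.58 and 12.97 in wild type, high on array 2 of mle/mle and low on that of wild type (difference 0.27, unadjusted p = 0.044, adjusted p = 0.9997 by limma). Lsp2 lay between 13.92 and 13.97 in mle/mle and between 13.81 and 13.91 in wild type. The summed linear signal of the 3 was 27829 to 30727 in mle/mle and 24237 to 28258 in wild type, lowest on array 2 of both groups, and its part in the low spermatid signal was not tested either. None of the 3 Eig71E genes passed over all probe sets (lowest adjusted p = 0.60 by limma, for Eig71Ee, unadjusted p = 0.0068).

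On the chromosomes, 20 of the 40 genes lie on 3R, 8 on 3L, 6 on 2L, 4 on 2R and 2 on X. The X share of 5.0% stands beside 16.3% of all genes. The X-linked pair were r-cup and p-cup, with differences of 0.05 and -0.05 and SEs of 0.09 each. The values of r-cup lay between 7.64 and 7.72 in mle/mle and between 7.45 and 7.74 in wild type, and those of p-cup between 5.87 and 6.01 and between 5.87 and 6.10. Besides the Mst clusters, janB and ocn are neighbours on 3R and hale-bopp and schuy on 3L. The gap of array 2 in mle/mle was -1.19 for janB beside -1.66 for ocn, and -0.13 for hale-bopp beside -0.29 for schuy.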

How the data were processed

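Values are the authors' deposited log2 signal for each probe set, from RMA as named in the submitters' processing notes; no version or settings were given in the sources used here. Per the file headers, a second deposited table holds log2 PLIER signals, with 16 added before the log. Of 14010 probe sets, 44 array controls were left out and 13966 tested. Platform symbols were updated through RefSeq (assembly Release 6 plus ISO1 MT; 12393 probe sets by Entrez ID, 4 by symbol), and the probe set with the highest mean over the 6 arrays stood for a gene. No build is named for the arrays, so no coordinates are printed.

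The 2-sided test was limma 3.58.1 (lmFit, eBayes) under R 4.3.3, fitted to every tested probe set. P-values were adjusted by Benjamini-Hochberg over that whole table, with a gene called below 0.05. The procedure was tested on simulated data. Figures were drawn with matplotlib 3.10.9. The members, lists, roles and alternatives were chosen with earlier results of these data known. All measured members are named, with values on every array for the arrest regulators, the 2 brightest of each other role and, since no member had an unadjusted p under 0.05, the 3 highest and 3 lowest differences. Values of the other genes and the gap of array 2 were chosen after they were seen.

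Both groups carry the replicate numbers 1 to 3 in the titles. Arrays of the same number deviated together from their group means (correlations of 0.17, 0.28 and 0.52 across probe sets). Between arrays of different numbers the correlations ran from -0.41 to 0.01. Deviations from a group mean cancel within the group, so positive values for equal numbers force lower ones for different numbers. The titles do not state that arrays of the same number are pairs. The numbers were read as pairs from these same data, and a blocked fit was 1 of the alternatives.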

Additional observations from a re-analysis of the deposited data

How the results depend on the processing

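In the 16 tested alternatives limma called 0 of the measured members, and the lowest adjusted p in any of them was 0.22. An adjusted p under 0.1 also gave 0. Blocking on the replicate number gave 0 calls and 0 members at an unadjusted p under 0.05, against 7.61% of all genes, and the pairing changed no call. Members at an unadjusted p under 0.05 numbered 0 to 2 when 1 array was left out: 1 without wild type replicate 2 (rye, lower, against 6.77% of all genes) and 2 without mle/mle replicate 2 (bol and S-Lap5, higher, against 8.41%). Without both arrays numbered 2 there were 3 (bol and S-Lap5 higher, rye lower), against 14.4%. The median difference of the arrest regulators was -0.0865 to -0.00748 when 1 array was left out, -0.0822 without both arrays numbered 2, and -0.0893 and -0.212 within the PLIER array codes of 4 and 2 arrays, the last with 1 array per group and no test. The median of the spermatid products lay between -0.28 and 0.19 over the arrays left out and was -0.15 in the PLIER table. Of the 40 differences, 18 changed sign without mle/mle replicate 2, 15 without both arrays numbered 2 and 10 in the PLIER table. The dim filter kept 25 of the 40 genes. Dim signals and 3 arrays per group limit all of these values.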

Other observations

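Further testis genes outside the 40 also read low on array 2 of both groups. The mitochondrial chaperone gene Hsp60C read 7.94, 6.51 and 7.82 in mle/mle and 8.31, 7.50 and 7.96 in wild type. The testis mitochondrial channel gene Porin2 read 7.99, 7.14 and 7.89 in mle/mle and 8.02, 7.65 and 7.94 in wild type. The testis subunit gene ATPsynbetaL, by contrast, lay between 9.10 and 9.26 on all 6 arrays. Of the 128 genes with a gap beyond -0.5 on array 2 in both groups, 13 were among the 40 and 6 among the second list, which is 32.5% of the 40 genes and 16.7% of the 36 measured genes of that list. A gap above 0.5 in both groups was seen in 8 genes, none of them among the 40.

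Bright spermatid products had wider gaps than dim ones. The 13 brighter genes had a median gap of -1.26 in mle/mle and -0.64 in wild type, and the 14 dimmer ones -0.19 and -0.20. RMA compresses changes of dim probe sets, and the part of this in the difference between brighter and dimmer genes was not tested. Across the 40 genes the gaps of the 2 groups correlated at r = 0.83, and across all 10843 genes at r = 0.29. The points share arrays and brightness, so these are descriptions over genes, which are not independent replicates.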
